A study of Mus musculus with 69 samples.

Results

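The small leucine-rich proteoglycans (SLRPs) described here were Dcn (decorin), Bgn (biglycan), Aspn (asporin), Fmod (fibromodulin), Lum (lumican), Prelp, Omd (osteomodulin), Ogn (osteoglycin) and Podn (podocan), 9 genes of the 56953 gene IDs in the count tables. They were chosen by name: the row whose Ensembl ID belongs to each symbol was taken from the tables of WT VSMC, KO VSMC and EC across all treatments. All 9 were read often enough to be tested in each of the cell types.

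Poly(A) RNA-Seq was performed on primary cells of male mice on a C57BL/6 background, in 69 libraries. Vascular smooth muscle cells (VSMC) were grown from the aorta of wildtype mice (WT VSMC, sets 1 to 4, 16 libraries) and of mice in which Cre under the SM22 promoter had removed floxed Egfr (KO VSMC, sets 5 to 8, 15 libraries), and endothelial cells (EC, sets 9 to 18, 38 libraries) came from the heart after bead sorting for CD31+ and CD45- cells. A set was 1 animal's cells at 1 passage, treated at the same time for 24 h, always in the presence of albumin. Treatments were Control, metabolic stressors (HG + FFA: 20 mM glucose with free fatty acids), humoral stressors (AII + NA) or both together (ALL). The sample labels give the free fatty acids as 100 µM and the methods as 100 µM each of oleate and palmitate. AII + NA was 30 nM angiotensin II with 300 nM norepinephrine, which the sample labels spell as epinephrine. The methods for VSMC state that serum was absent before and during incubation, and those for EC do not state it. EC sets 17 and 18 shared an animal, EC sets 9 and 10 came from the animals of WT VSMC sets 1 and 2, and EC sets 15 and 16, labelled WT, came from the animals of KO VSMC sets 7 and 6. Not analysed here were ALL in KO VSMC set 5, Control in EC set 10 and AII + NA in EC set 15. Every VSMC library carried 1 batch label and every EC library another, so cell type and batch cannot be told apart.

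SLRPs are secreted proteins whose arch of leucine-rich repeats binds fibrillar collagen and helps to set the diameter and spacing of fibrils. Most carry glycosaminoglycan chains, chondroitin or dermatan sulfate on Dcn and Bgn and keratan sulfate on Fmod, Lum and Omd, while Aspn has a stretch of aspartate in place of the usual attachment site. In the vessel wall they are known as matrix components that bind growth factors and lipoproteins. Dcn and Aspn can bind TGF-beta, Dcn is also a known ligand of EGFR, and Bgn fragments are known to signal through Toll-like receptors.

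Most SLRP genes lie in clusters. On GRCm39 chromosome 13, Ecm2 (another leucine-rich matrix gene, chr13:49658236-49687964), Aspn (chr13:49697609-49721057), Omd (chr13:49735938-49746298) and Ogn (chr13:49761349-49780412) follow each other on the plus strand, with gaps of 9.64, 14.9 and 15.1 kb, and Cenpp, a kinetochore gene, runs across all of them on the minus strand. Exons of Cenpp covered 9.12% of the exonic bases of Aspn and 18.8% of those of Ogn. Whether counting used the strand is not stated, so reads of these stretches cannot be assigned with certainty. Dcn (chr10:97315275-97358155) and Lum (chr10:97400990-97408577) lie 42.8 kb apart on chromosome 10, and Prelp (chr1:133837335-133857971) and Fmod (chr1:133964992-133976015) 107 kb apart on chromosome 1. Bgn (chrX:72527208-72539541) and Podn (chr4:107871988-107889534) stand alone. Exons of the lncRNA gene Gm15851 covered 4.98% of those of Prelp, and the remaining members had no exonic overlap.

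The SLRPs of chromosome 13 had the largest log2FC against Control within WT VSMC, so the 250 bases before each start site are printed here, from RefSeq on GRCm38.p6, with capitals for matches on either strand. The letters searched, at any position of the 250 bases, were TATAAA (as in the TATA box), TGANTCA (the AP-1 element), CAGAC (a SMAD element) and GGAATG (a core of TEAD sites). The CArG box (the serum response element) was searched too and is given by its name. A match is one of letters alone, and whether it works as an element was not tested.
Ecm2: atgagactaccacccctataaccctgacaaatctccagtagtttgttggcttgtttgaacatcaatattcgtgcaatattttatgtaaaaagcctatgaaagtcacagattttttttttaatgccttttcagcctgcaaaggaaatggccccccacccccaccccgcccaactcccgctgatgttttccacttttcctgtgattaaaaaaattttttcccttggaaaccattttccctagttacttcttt
Aspn: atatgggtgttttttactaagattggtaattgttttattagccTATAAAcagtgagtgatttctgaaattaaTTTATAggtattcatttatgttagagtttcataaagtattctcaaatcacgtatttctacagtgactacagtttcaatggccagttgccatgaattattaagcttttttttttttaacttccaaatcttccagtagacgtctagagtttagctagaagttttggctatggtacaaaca
Omd: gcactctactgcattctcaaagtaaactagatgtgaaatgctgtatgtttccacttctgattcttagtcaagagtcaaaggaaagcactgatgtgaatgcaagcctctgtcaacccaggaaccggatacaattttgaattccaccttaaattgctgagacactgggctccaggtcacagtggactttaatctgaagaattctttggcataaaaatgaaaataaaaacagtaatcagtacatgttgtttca
Ogn: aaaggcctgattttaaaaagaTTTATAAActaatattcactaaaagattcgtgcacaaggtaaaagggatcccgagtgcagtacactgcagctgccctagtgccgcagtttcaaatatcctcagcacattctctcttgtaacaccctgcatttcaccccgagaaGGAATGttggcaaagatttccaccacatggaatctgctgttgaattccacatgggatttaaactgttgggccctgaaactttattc
They span chr13:49504560-49504809 for Ecm2, chr13:49544193-49544442 for Aspn, chr13:49582212-49582461 for Omd and chr13:49607765-49608014 for Ogn, all on the plus strand. TATAAA stood 207 to 202 and, on the other strand, 178 to 173 bases before the start of Aspn, and on both strands between 229 and 222 bases before that of Ogn, where the matches overlap. GGAATG stood 86 to 81 bases before the start of Ogn. Ecm2 and Omd held none of the letters searched. Of 27018 RefSeq upstream stretches of this length, 3503 held TATAAA. The share was 12.6% for GGAATG, 42.1% for CAGAC, 6.87% for TGANTCA and 1.40% for a CArG box. Of the 7 members with an entry (not Dcn and Lum), 2 held TATAAA (Aspn and Ogn), 2 held CAGAC (Fmod and Prelp), 1 held GGAATG, and none held TGANTCA or a CArG box.

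The libraries held 17166133 to 43240489 counted reads, and levels are given in FPM, the counts-per-million scale of edgeR after TMM adjustment of library size. Egfr stood at 283 to 504 FPM in the WT VSMC Controls and at 0.538 to 1.69 in those of KO VSMC sets 6 to 8, while KO VSMC set 5 kept 40.2 FPM and is named wherever a result rests on it. Of the 10 smooth muscle markers, Acta2 averaged 886 FPM in WT VSMC and 1405 in KO VSMC over all treatments. Tagln averaged 3.9 and 6.46 FPM and Des 1.45 and 1.92. Smtn averaged 66.9 and 87.1, Lmod1 45.55 and 64.6, Mylk 30.9 and 18.6, and Synpo2 9.65 and 15.7. Cnn1 averaged 23.1 and 98.7, Myh11 7.45 and 51.9, and Actg2 4.4 and 43.5. The summed level of 10 fibroblast markers, which include no SLRP, was 1665 to 6018 FPM in the WT VSMC Controls, 769 to 1144 in KO VSMC sets 6 to 8 and 3075 in set 5. In EC, the summed level of 10 endothelial markers ranged from 492 to 4222 FPM in the Controls of 6 sets but was 55.96, 137 and 69.0 FPM in sets 9, 11 and 13, which therefore went against their label. Set 17, at 492 FPM, had fibroblast, pericyte and smooth muscle marker sums of 754, 671.5 and 594.5 FPM in Control. Set 16, at 772 FPM, had 509, 694.5 and 805 FPM of these. In bulk RNA, fewer cells of a type and less RNA per cell cannot be told apart.

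The members differed widely in level in every cell type. Compared per kilobase of the canonical transcript in the WT VSMC Controls (mean ± SD, n = 4 sets), Bgn led by far at 2892 ± 296 FPM per kb. Prelp (352 ± 113), Fmod (326 ± 135) and Dcn (291 ± 105) followed with overlapping ranges. Lum (110 ± 51.9) and Ogn (107 ± 73) came next and overlapped each other, Podn stood at 31.0 ± 6.72 and reached only the lowest Ogn set, and Aspn (5.17 ± 3.40) and Omd (2.77 ± 1.88) were the lowest and overlapped each other. In the KO VSMC Controls Bgn (3292 ± 858) and Prelp (269 ± 136) again led, Lum (19.0 ± 20.6) ranked below Podn (36.8 ± 18.1), and Aspn (3.66 ± 4.23) and Omd (3.55 ± 2.54) were again lowest. In the EC Controls (n = 9 sets) the means ran from 3896 ± 2068 for Bgn to 3.22 ± 3.43 for Omd. The annotation release used for the lengths differs from that of the counts, and with the joined exons of all transcripts Dcn falls to 136 FPM per kb in WT VSMC, so neighbours in this order are uncertain.

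**Figure D1:**
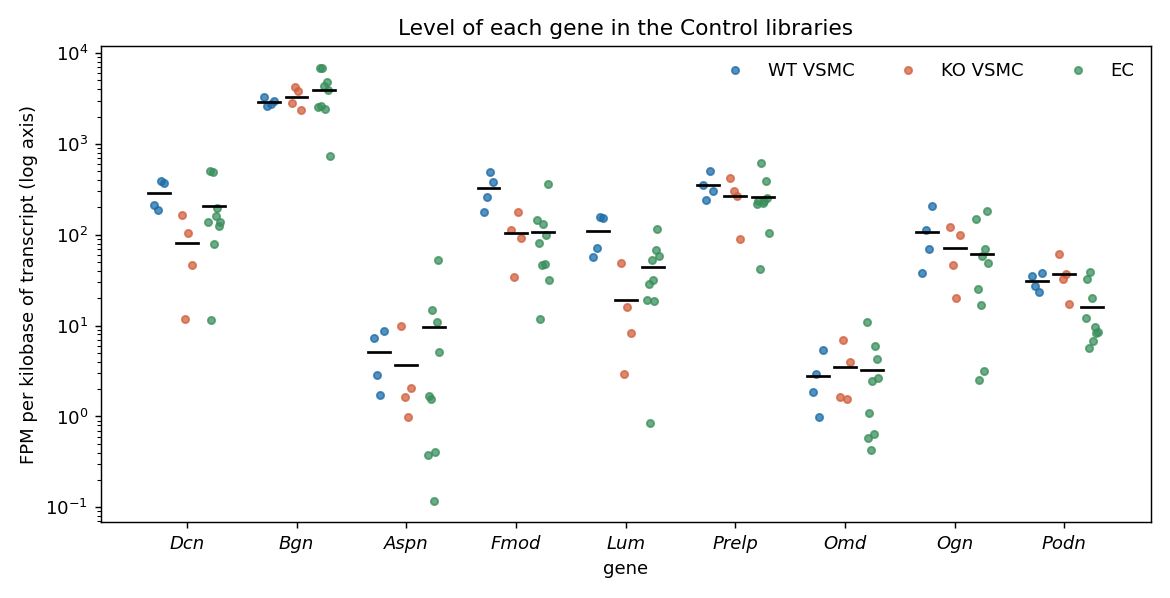
Level of the 9 genes in the Control libraries, in FPM per kilobase of transcript on a log axis; each point is 1 set (4 WT VSMC, 4 KO VSMC and 9 EC) and each bar the mean. Bgn was highest throughout, and the EC points of Aspn ran from 0.119 to 52.9 FPM per kb.

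The first comparison asked which SLRPs respond to the stressors in WT VSMC. Of the 9 members, 2 were differentially expressed (DEG) after ALL stressors, Aspn and Omd, both lower and neighbours on chromosome 13. To be a DEG, a gene needed an FDR under 0.05 from edgeR as well as DESeq2, an absolute log2FC no smaller than 0.64 and 3 FPM or more in a group. Of the 16905 genes tested, 2.19% were DEG and 0.97% were lower.

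Aspn, a collagen-binding SLRP best known from cartilage and tooth ligament, stood at 17.2, 6.82, 4.09 and 20.9 FPM in the Controls of sets 1 to 4 and at 6.37, 1.71, 1.24 and 2.71 FPM after ALL. Every set fell, to between 0.13 and 0.371 times its own Control, although the groups overlapped because the sets differed in level. The fall was 2.02 on the log2 scale (log2FC = -2.02, SE 0.29, edgeR FDR 0.000963), and it ran from -2.30 to -1.67 with each set left out in turn. Omd, a keratan sulfate SLRP of mineralised tissue, stood at 3.88, 6.03, 2.03 and 11.1 FPM in the Controls and at 2.21, 3.92, 0.982 and 4.91 FPM after ALL. It too was lower in 4 of 4 sets, at 0.444 to 0.65 times the Control (log2FC = -0.89, SE 0.18, FDR 0.00688). Omd rested on set 4, without which the log2FC was -0.78 and the FDR 0.0736. Of all genes tested, 14.3% were lower in every set.

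Under the single stressors no member was a DEG, against 0.284% of genes after HG + FFA and 0.0414% after AII + NA. After HG + FFA, Aspn stood at 8.82, 6.21, 1.73 and 8.37 FPM in sets 1 to 4 (log2FC = -0.90, SE 0.27, FDR 0.169), and after AII + NA at 13.8, 2.69, 3.23 and 5.82 FPM (log2FC = -0.94, SE 0.27, FDR 0.233). Both were below Control in 4 of 4 sets, as were 11.5% of all genes after HG + FFA and 10.7% after AII + NA. Against ALL, Aspn differed by -1.12 from HG + FFA (FDR 0.149, 0.0296% of genes DEG) and by -1.08 from AII + NA (FDR 0.0895, 0.544% DEG), and the departure from additivity on the log2 scale was not called for any member (0% of genes). Omd was at -0.74 after HG + FFA (SE 0.17, FDR 0.0799) and at -0.73 after AII + NA (SE 0.18, FDR 0.155), again below Control in 4 of 4 sets. For Omd, ALL differed by -0.15 from HG + FFA (FDR 0.796) and by -0.16 from AII + NA (FDR 0.778), and the departure from additivity was 0.58 (SE 0.26, unadjusted p = 0.0377, edgeR FDR 0.9998). With the fit restricted to the groups compared, Aspn (FDR 0.0125) and Omd (FDR 0.0222) were both DEG after HG + FFA.

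**Figure D2:**
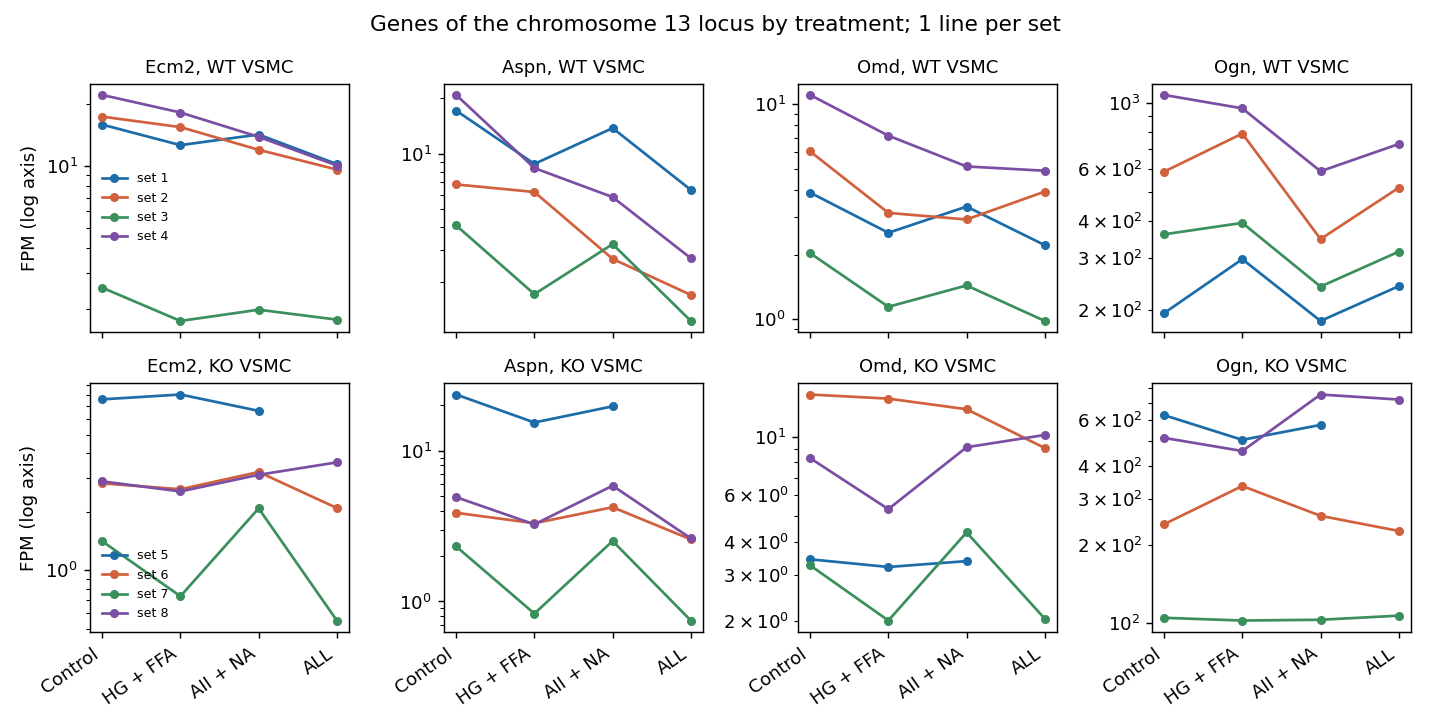
FPM on log axes of Ecm2, Aspn, Omd and Ogn in WT VSMC (top) and KO VSMC (bottom) by treatment, with 1 line per set; the ALL library of KO VSMC set 5 is not drawn. In WT VSMC the lines of Ecm2, Aspn and Omd end below their Control in all 4 sets, while those of Ogn dip at AII + NA.

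Ogn, the third SLRP of the cluster, followed another order. It stood at 195, 585, 359 and 1064 FPM in the WT VSMC Controls, at 296, 788, 393 and 959 after HG + FFA and at 183, 346, 239 and 587 after AII + NA. All 4 sets were lowest under AII + NA, where the log2FC was -0.58 (SE 0.12, unadjusted p = 0.00015, edgeR FDR 0.106, DESeq2 FDR 0.00187), which is not a DEG. After ALL it stood between both single stressors in 4 of 4 sets, at 240, 517, 314 and 726 FPM, 0.42 above AII + NA (SE 0.12, FDR 0.0975) and -0.41 from HG + FFA (SE 0.12, FDR 0.177). Ecm2, next to Aspn, was a DEG after ALL (log2FC = -0.82, SE 0.12, FDR 0.00122), with 15.9, 17.4, 2.55 and 22.2 FPM in the Controls and 10.2, 9.6, 1.78 and 10.0 after ALL. It was lower in all 4 sets. The flanking gene Nol8 was not a DEG after ALL (log2FC = 0.01, SE 0.11). Antisense Cenpp was at 0.29 (SE 0.35) but could not have been called, since its levels lay under 3 FPM. It stood at 0.547 to 1.04 FPM in the WT VSMC Controls and at 0.607 to 1.6 after ALL. These genes were looked up after the values of the cluster had been seen.

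None of the more abundant SLRPs was a DEG in WT VSMC. Dcn stood at 1313, 1138, 2363 and 2295 FPM in the Controls and at 951, 783, 2782 and 1606 after ALL, below Control in all sets but set 3 (log2FC = -0.32, SE 0.11, FDR 0.107). Lum, which shares its chromosome 10 locus, did the same, with 142, 177, 383 and 375 FPM in the Controls and 108, 125, 467 and 252 after ALL (log2FC = -0.30, SE 0.12, FDR 0.141). For both genes set 3 alone stood above its Control. Bgn lay between 6071 and 7879 FPM in all 16 WT VSMC libraries. Bgn, Fmod, Prelp and Podn had log2FC between -0.12 and 0.12 after ALL, and of these 4 genes over the 3 stressor comparisons the lowest p-values were those of Podn, a smooth muscle SLRP, at -0.22 after HG + FFA (FDR 0.395) and 0.21 after AII + NA (FDR 0.507). The median log2FC of the 9 members after ALL was -0.17, against -0.01 over all genes tested.

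Levels of the members were also compared across the 16 WT VSMC libraries after the mean of each set was subtracted. The genes most like Aspn, of 11203 protein-coding genes averaging 3 FPM or more, were Ecm2 (r = 0.961), Ankrd6 (0.958) and Enpp1 (0.955), and those most like Dcn were Lum (0.928), Akr1c14 (0.907) and Vamp4 (0.888). Within the family, Aspn and Omd had r = 0.799 and Dcn and Bgn -0.03. Ogn and Podn ran opposite to each other, with r = -0.74. The points share animals and treatments, so these coefficients are descriptions.

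Among the genes that work with SLRPs, both directions occurred after ALL in WT VSMC, where 2.19% of all genes were DEG and 0.97% were lower DEG. Of 25 fibrillar collagen and fibril surface genes tested, 3 rose and 3 fell: Col5a3, a regulator of fibril formation (log2FC = -1.48, SE 0.16), Col6a3, a chain of the microfibrillar collagen that Dcn and Bgn bind (-1.11, SE 0.21), and Col3a1 fell, while Eln, the core of elastic fibres (1.19, SE 0.21), Col12a1, a fibril-associated collagen (0.86, SE 0.17), and Lox rose. Of 25 genes of glycosaminoglycan synthesis tested, only Chst15, a chondroitin sulfotransferase, was a DEG (0.68, SE 0.14). Of 21 proteases and binding partners, Adamts1, which cleaves proteoglycans (0.78, SE 0.17), and Tgfb2 (0.96, SE 0.17) rose. Of 19 other proteoglycans, Vcan, the large aggregating versican, fell (-0.84, SE 0.22). Of 6 other leucine-rich family genes, Ecm2 was the DEG. The lists had median log2FC between -0.14 and 0.02, against -0.01 for all genes.

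The fibroblast markers summed to 1665 to 6018 FPM in the WT VSMC Controls and to 1606 to 4756 after ALL, with 4 of 10 lower as DEG. The smooth muscle markers summed to 975, 521, 1231 and 398 FPM in the Controls of sets 1 to 4 and to 1203, 1240, 1141 and 1614 after ALL. Set 3 was thus lower, and 2 of 10 genes were higher as DEG. Acta2, averaging 886 FPM over all WT VSMC libraries, made up most of this sum. Of all genes, 2.19% were called in either direction and 0.97% lower. Among fibroblast genes, Dpt and Col14a1 also stand in the collagen list. The part of these shifts in the results for Aspn and Omd was not tested.

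In KO VSMC no member was a DEG after any stressor, against 0.314% of 17538 genes after ALL, 0.291% after HG + FFA and 0% after AII + NA. At an unadjusted edgeR p under 0.05 there were 5 members after ALL (10.5% of all genes) and 4 after HG + FFA (12.4%), all lower, and none after AII + NA (9.76%). Aspn stood at 23.6, 3.88, 2.32 and 4.92 FPM in the Controls of sets 5 to 8, at 15.4, 3.3, 0.831 and 3.25 after HG + FFA, and in sets 6 to 8 at 2.58, 0.748 and 2.62 after ALL. It was below Control in every set, as were 18% of all genes after ALL and 6.53% after HG + FFA, with log2FC = -0.996 after ALL (SE 0.23, edgeR FDR 0.082, DESeq2 FDR 0.00409) and -0.65 after HG + FFA (SE 0.19, FDR 0.211). DESeq2 alone, or edgeR and DESeq2 without the filter on low counts, called it after ALL. Under AII + NA Aspn was at 19.7, 4.22, 2.52 and 5.86 FPM, with log2FC = 0.04 (SE 0.19, FDR 0.938).

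Podn and Lum had the next largest log2FC in KO VSMC. Podn stood at 102, 118 and 54.4 FPM in the Controls of sets 6 to 8 and at 94.0, 60.2 and 35.0 after ALL (log2FC = -0.55, SE 0.13, FDR 0.108). Lum stood at 120, 7.29, 39.1 and 20.2 FPM in the Controls of sets 5 to 8 and at 98.8, 6.9, 16.7 and 11.6 after HG + FFA (log2FC = -0.59, SE 0.18, FDR 0.225). It was lower in all 4 sets, and without set 5 it became a DEG (log2FC = -0.72, FDR 0.0474). Dcn was lower in 4 of 4 sets after HG + FFA (log2FC = -0.28, SE 0.08, edgeR FDR 0.223, DESeq2 FDR 0.0142). Lum (-0.65, FDR 0.244), Fmod (-0.37, FDR 0.42) and Dcn (-0.22, FDR 0.425) were also below Control in 3 of 3 sets after ALL. Omd stood at 3.43, 14.4, 3.26 and 8.29 FPM in the Controls of sets 5 to 8 and at 3.21, 13.9, 2.01 and 5.32 after HG + FFA. It was lower in 4 of 4 sets (log2FC = -0.31, SE 0.22, FDR 0.551), and after ALL in 2 of 3 (-0.26, SE 0.25, FDR 0.726). Ogn had log2FC between 0.02 and 0.13. Fibroblast markers summed to 769 to 1144 FPM in the Controls of sets 6 to 8 and to 732 to 867 after ALL, with none of 10 a DEG, and their part in these values was not tested.

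**Figure D3:**
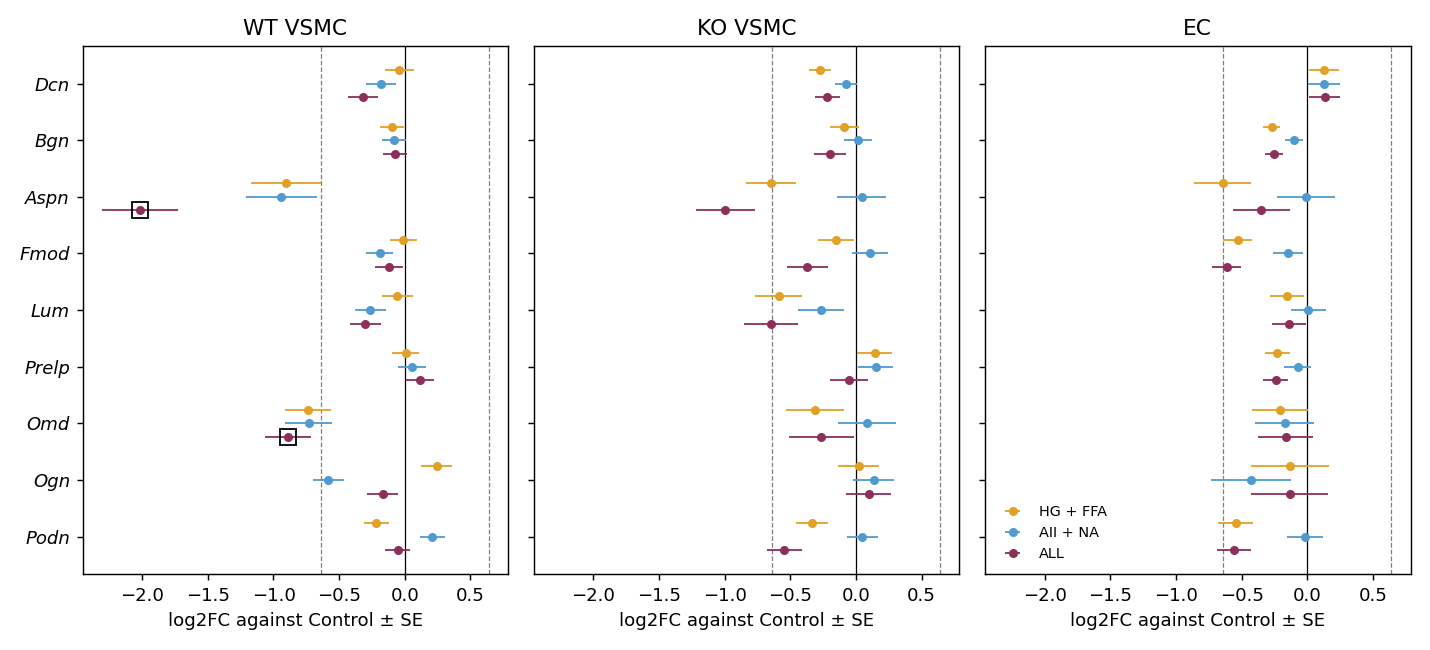
Log2FC against Control ± SE (edgeR, set as block) of the 9 genes in WT VSMC, KO VSMC and EC after HG + FFA, AII + NA and ALL; dashed lines mark an absolute log2FC of 0.64 and squares mark DEG. The squares are Aspn and Omd after ALL in WT VSMC, and the EC panel has Fmod and Podn to the left of 0 wherever HG + FFA was present.

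Whether the stressor effects differed between the genotypes was tested as an interaction over both VSMC types, and no member passed (0.0109% of 18339 genes were called for ALL, 0% for the others). Under AII + NA the largest differences among the members were those of the chromosome 13 genes. For AII + NA, the log2FC of WT VSMC less that of KO VSMC was -0.97 for Aspn (SE 0.36, unadjusted p = 0.0115), -0.81 for Omd (SE 0.30, p = 0.0117) and -0.71 for Ogn (SE 0.21, p = 0.00205), all with an edgeR FDR of 0.395, where 11.9% of all genes had an unadjusted p under 0.05. For ALL, the members with an unadjusted p under 0.05 were Aspn, with a difference of -1.03 (SE 0.41, FDR 0.584), and Podn, with 0.49 (SE 0.17, FDR 0.449). For HG + FFA, Lum differed by 0.53 (SE 0.23, FDR 1). These values do not show that the responses of WT VSMC and KO VSMC differ, nor that they are alike.

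Without stressors, KO VSMC and WT VSMC were compared set by set, and 3 SLRPs stood apart in level without passing the test. Dcn was at 997, 71.7, 640 and 287 FPM in KO VSMC sets 5 to 8, against 1138 to 2363 in WT VSMC (log2FC = -1.82, SE 0.67, FDR 0.388). Lum was at 120, 7.29, 39.1 and 20.2 FPM, against 142 to 383 (log2FC = -2.52, SE 0.77, edgeR FDR 0.35, DESeq2 FDR 0.0154). Fmod, which assists collagen fibril assembly alongside Lum, was at 348, 107, 551 and 289 FPM, against 559 to 1518 (log2FC = -1.64, SE 0.48, edgeR FDR 0.344, DESeq2 FDR 0.0297). In each of the 3 all KO VSMC sets lay below all WT VSMC sets, as did 2.8% of the 16089 genes tested, and 0.00622% of genes were DEG in this comparison. Without set 5, the library that kept Egfr reads, Lum was a DEG (log2FC = -3.59, FDR 0.0338), Dcn was at -2.40 (FDR 0.0877) and Fmod at -1.67 (FDR 0.117).

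**Figure D4:**
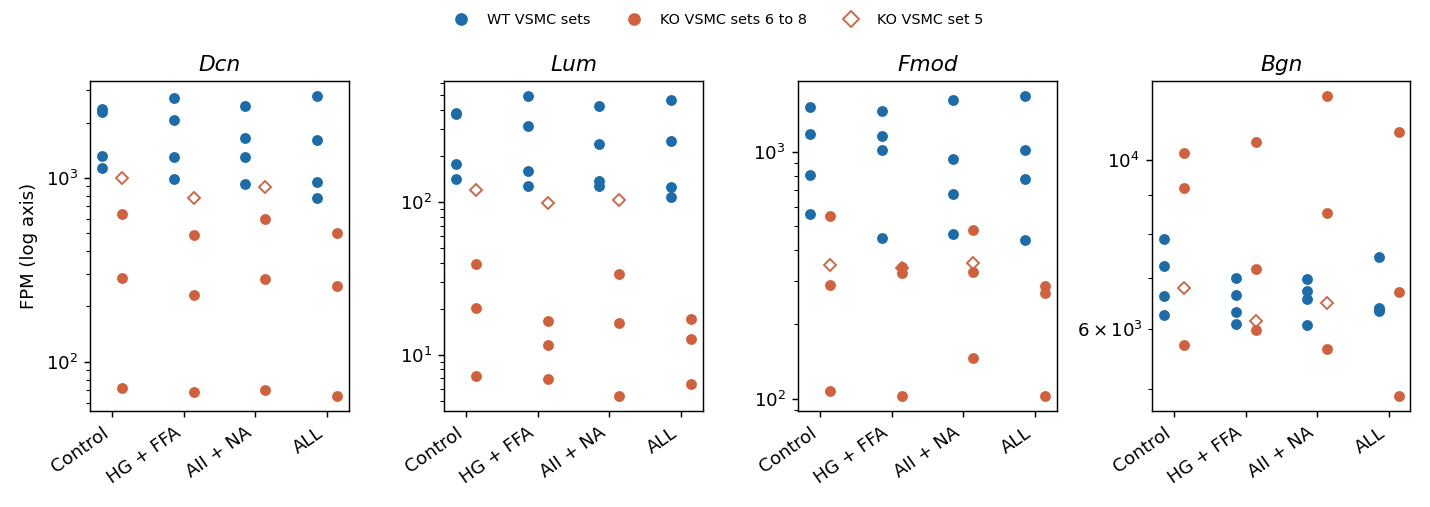
FPM on log axes of Dcn, Lum, Fmod and Bgn in each WT VSMC and KO VSMC library by treatment; open diamonds are KO VSMC set 5. Lum in KO VSMC sets 6 to 8 stayed between 5.37 and 39.1 FPM under all treatments, below the lowest WT VSMC library at 108 FPM, while the Bgn points overlap.

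The remaining members overlapped between the genotypes. Bgn was at 5713 to 10210 FPM in KO VSMC and 6253 to 7879 in WT VSMC (log2FC = 0.20, SE 0.25), and the differences of Podn, Prelp, Omd, Ogn and Aspn lay between -0.54 and 0.37 with SE between 0.33 and 0.76. Within KO VSMC, set 5, with 3075 FPM of fibroblast markers, had the highest Dcn and Lum of its genotype, and sets 6 to 8 had 769 to 1144 FPM. Set 5 also had the highest sums of smooth muscle (3315 FPM), chondrocyte (307.5), leukocyte (137) and endothelial (26.2) markers among the KO VSMC Controls. Its pericyte, mesothelial and cardiomyocyte sums were not the highest. Within WT VSMC, set 3 had the lowest fibroblast sum (1665 FPM), the highest smooth muscle sum (1231 FPM) and the highest Dcn and Lum. Smooth muscle markers summed to 971 to 3315 FPM in KO VSMC and 398 to 1231 in WT VSMC. The part of these marker levels in the differences was not tested. None of the genes of the collagen, glycosaminoglycan, protease, proteoglycan or leucine-rich lists was a DEG between the genotypes, and the median log2FC of the 24 collagen and fibril genes tested was -0.72, against -0.00255 for all genes.

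In EC, Fmod, Podn and Bgn passed the FDR in both tools wherever HG + FFA was present but stayed under the fold threshold, so none of the 9 was a DEG, against 0.641% of 17148 genes after ALL and 0.659% after HG + FFA. At any fold, 2.03% of genes were lower with an FDR under 0.05 in both tools after ALL and 1.88% after HG + FFA.

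Fmod stood at 36.6, 254 and 1121 FPM (lowest, median and highest of 9 Controls) and at 22.2, 252 and 676 FPM after ALL (10 sets, since set 10 had no Control here). The groups overlapped widely, but Fmod was below its own Control in 9 of 9 sets after ALL (log2FC = -0.61, SE 0.11, FDR 0.000714) and in 8 of 9 after HG + FFA (-0.53, SE 0.11, FDR 0.00352). Podn stood at 17.9, 30.7 and 124 FPM in the Controls, at 8.17, 24.8 and 122 after ALL, and was lower in 8 of 9 sets (log2FC = -0.56, SE 0.13, FDR 0.0135), with -0.54 after HG + FFA (SE 0.13, FDR 0.0157). Bgn, at 1796, 9557 and 16760 FPM in the Controls and 1253, 7012 and 15730 after ALL, differed by -0.25 (SE 0.07, FDR 0.0248) and after HG + FFA by -0.27 (SE 0.07, FDR 0.0144). It was lower in 8 of 9 sets after ALL and in 9 of 9 after HG + FFA. Of all genes, 1.32% were lower in every set after ALL and 1.54% after HG + FFA. AII + NA gave -0.15 for Fmod (FDR 0.774), -0.01 for Podn (FDR 0.989) and -0.10 for Bgn (FDR 0.749), and ALL differed from AII + NA by -0.47 for Fmod (FDR 0.0101) and -0.54 for Podn (FDR 0.0145), where 0.63% of genes were DEG. After AII + NA, 0% of genes were DEG.

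Without sets 9, 11 and 13, whose endothelial markers were low, Fmod was a DEG after ALL (log2FC = -0.67, FDR 0.00215) and after HG + FFA (-0.65, FDR 0.00278). Podn was then at -0.63 (FDR 0.0309) and -0.53 (FDR 0.073), and Bgn at -0.26 (FDR 0.0761) and -0.29 (FDR 0.0372). With the animal in place of the set as block, which joins the unlike sets 17 and 18, none of the 3 kept an FDR under 0.05. After ALL, Fmod was then at -0.58 (FDR 0.644), Podn at -0.54 (FDR 0.102) and Bgn at -0.23 (FDR 0.839), and after HG + FFA at -0.51 (FDR 0.689), -0.52 (FDR 0.113) and -0.24 (FDR 0.814). Fibroblast markers summed to 291 to 988 FPM in the Controls and to 252 to 891 after ALL, with 10 of 10 genes below 0 in log2FC and 1 of them a DEG, and smooth muscle markers to 240 to 4034 and 232 to 3740. Their part in the lower Fmod, Podn and Bgn was not tested.

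The other members did not pass in EC. Prelp, a basement membrane SLRP that binds heparan sulfate, was at -0.24 after ALL (SE 0.10, FDR 0.193) and -0.23 after HG + FFA (FDR 0.218), and Aspn at -0.64 after HG + FFA (SE 0.22, FDR 0.103) but -0.35 after ALL (SE 0.22). Dcn was the member with positive values throughout, 0.13 (SE 0.12) after each of the 3 treatments. The chromosome 13 SLRPs Omd and Ogn had SE of 0.21 to 0.30, and Ogn ran from -3.03 to 1.54 on the log2 scale across 9 sets after ALL.

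**Figure D5:**
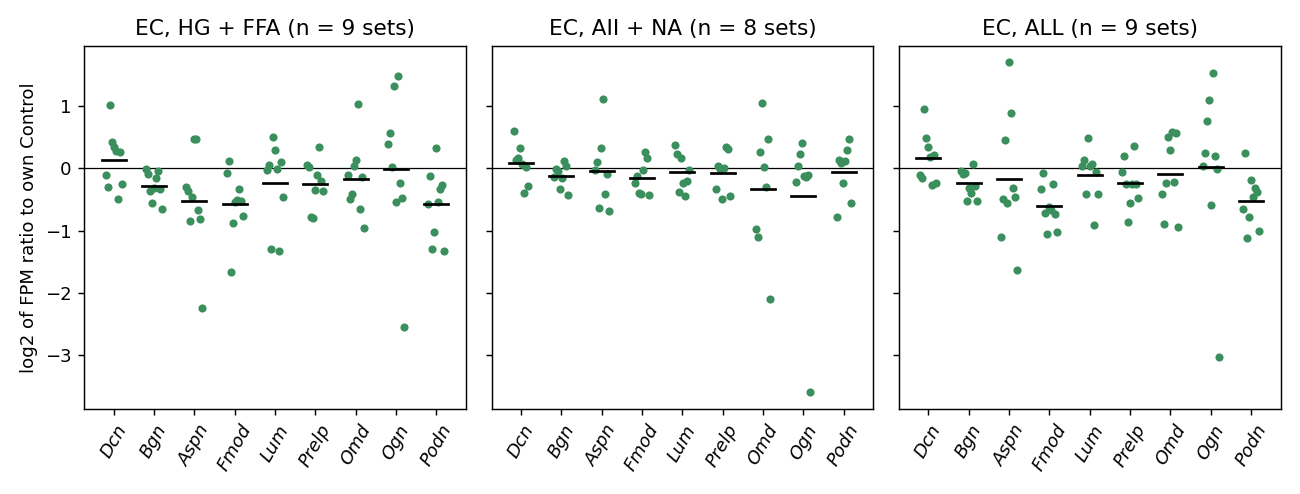
Log2 ratio of FPM to the set's own Control in EC for the 9 genes after HG + FFA, AII + NA and ALL; points are sets (9, 8 and 9) and bars their means. The points of Fmod after ALL lie between -1.05 and -0.07, whereas those of Ogn, Omd and Aspn fall on both sides of 0.

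Levels varied widely between EC sets. Aspn ran from 0.281 to 125.5 FPM over the Controls, Lum from 2.06 to 285, Ogn from 13.1 to 937 and Dcn from 70.9 to 3095. Sets 17 and 18, grown from the same animal, had 125.5 and 12.3 FPM of Aspn, 1121 and 98.9 of Fmod and 9557 and 1796 of Bgn, but 760 and 850 of Dcn. Their endothelial marker sums were 492 and 3443 FPM. Set 12, with the highest endothelial sum (4222 FPM), had the lowest Dcn, Lum, Ogn and Fmod of all Controls. Set 14, at 4180 FPM, had 485 FPM of Dcn and 77.6 of Lum, but 301 of Ogn, 408 of Fmod and 10400 of Bgn. Sets 11 and 13, with 137 and 69.0 FPM, had the highest Dcn and Bgn, while set 9 (55.96 FPM) had 838 FPM of Dcn and 6104 of Bgn. Against WT VSMC no member was a DEG in Control, where 9.87% of 17115 genes were, and the values with an unadjusted p under 0.1 were -1.59 for Fmod (SE 0.63, FDR 0.104), -1.29 for Lum (SE 0.70, FDR 0.223) and -0.94 for Podn (SE 0.47, FDR 0.19). Without sets 9, 11 and 13, Podn was a DEG (log2FC = -1.61, FDR 0.00439). Neither comparison with WT VSMC had a block, and EC sets 17 and 18, of the same animal, counted separately. With all sets, EC set 9 also shared its animal with WT VSMC set 1.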

How the data were processed

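The authors aligned poly(A) RNA-Seq reads with HISAT2 2.1.0 to mm39 and counted reads per Ensembl gene with featureCounts, multi-mapping reads included, and deposited raw counts in 1 table per cell type. The strand setting is not given in the sources used here. The members and gene lists were chosen with earlier results of these data known.

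Counts were tested per cell type with edgeR 4.0.16 (quasi-likelihood test, TMM, filterByExpr, set as block) and DESeq2 1.42.0 (R 4.3.3), with Benjamini-Hochberg adjustment over all genes tested. FDR without a tool's name is edgeR's, as is log2FC. edgeR prints no SE, so each SE was derived as the absolute log2FC divided by the square root of the F statistic of its test. A DEG had an FDR under 0.05 in both tools, an absolute log2FC of at least 0.64 and a mean of at least 3 FPM in a group, and all treatments of a cell type shared 1 fit. Comparisons between cell types used Control libraries without a block, and those of stressor effects between genotypes a joint fit. The scripts were tested on simulated data. Sets came from separate animals or passages. With the set as block, p-values measure how far a stressor effect varied between sets, not how far levels did. In the comparisons without a block they measure the spread of levels between sets. The set number marks a shared animal and passage, and libraries of a set deviated together (the mean r was 0.797 for WT VSMC, 0.78 for KO VSMC, and 0.819 for EC). No libraries of a group were duplicates.

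Named from the lists were up to 4 DEG per list by absolute log2FC, to which Col3a1 and Lox were added after their values were seen, and, for likeness to Aspn and Dcn, the 3 genes with the highest Pearson r of log2(FPM + 0.1). Lengths and positions came from GENCODE on GRCm39 and upstream sequences from RefSeq on GRCm38.p6. Alternatives were edgeR or DESeq2 alone, other size factors, no filter on low counts, no FPM minimum, no block or the animal as block, fits of the compared groups, complete sets, each set left out, EC without sets 15 and 16, and, chosen after seeing the data, EC without sets 9, 11 and 13 and another gene length.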

Additional observations from a re-analysis of the deposited data

Results flagged for a closer look

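Of 99 groups of 4 to 10 libraries examined, 9 held a library far from the others by Dixon's criterion, where chance gives about 4.95. The groups share sets and libraries and are not independent, so the 9 cannot be tested against 4.95. In EC, Bgn was far below the other sets in set 18 under all 4 treatments, at 1796 FPM in Control (next lowest 5815), 1342 under AII + NA (5562), 1139 under HG + FFA (4960) and 1253 under ALL (4404). The Control of EC set 12 was far below the others for Dcn, at 70.9 FPM (next 485.1), and for Lum, at 2.06 FPM (next 46.3). Fmod in KO VSMC set 6 stood at 103 FPM after HG + FFA, with the other 3 sets from 324 to 340 FPM. In WT VSMC, Bgn stood at 7453 FPM after ALL in set 1 (next 6378) and Prelp at 2061 FPM after HG + FFA in set 3 (next 1356).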

How the results depend on the processing

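Of 612 repeats of 54 member results under the alternatives, 587 stayed on their side of the call, 21 became calls, 3 lost one and 1 changed sign. The 54 were results with an unadjusted edgeR p under 0.05, and Podn in EC against WT VSMC. Only Aspn and Omd after ALL in WT VSMC were calls in the main fits. Most of the 587 were therefore results that were not called and stayed so, which says little about the stability of the calls. In WT VSMC, the 2 members called after ALL were 0 with no replicate block (Aspn -2.01, FDR 0.647, and Omd -0.93, FDR 0.9999) and 1 to 2 with a set left out. Without the block, the difference of the ALL effect on Aspn between the genotypes changed sign, to 0.10. The count of members called rose from 0 to 1 with DESeq2 alone in WT VSMC for each single stressor (Omd) and for ALL, and ALL against AII + NA, in KO VSMC (Aspn), and to 2 for KO VSMC against WT VSMC (Lum and Fmod). With no filter on low counts it rose to 1 in the same stressor comparisons and for ALL against either single stressor in WT VSMC (Aspn), and with only the 2 groups compared to 2 for HG + FFA in WT VSMC. Leaving out a set gave 0 to 1 for HG + FFA in KO VSMC and for KO VSMC against WT VSMC. In EC it was 1 after ALL without sets 15 and 16 (Fmod -0.66, FDR 0.00536), and 1 without sets 9, 11 and 13 after ALL and HG + FFA (Fmod), for ALL against AII + NA (Podn -0.75, FDR 0.00793) and against WT VSMC (Podn). With all exons joined, levels per kb in WT VSMC fell to 1037 for Bgn, 216 for Prelp, 136 for Dcn, 42.0 for Lum and 22.7 for Podn. The causes were not tested. In the WT VSMC stressor comparisons Aspn and Omd, the members with the fewest reads, had the largest SE, and 3 or 4 sets per VSMC group limit every test there.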
